A study of Mus musculus with 3 samples.

Results

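The cells described here are cycling hippocampal myeloid cells, chosen by the UMI counts of 9 proliferation genes and not by a clustering. A cell was a member when it had at least 1000 UMIs (unique molecular identifiers, each standing for 1 captured RNA molecule), at least 500 genes, at most 10% mitochondrial UMIs, and at least 1 UMI of at least 3 of the 9 genes, Mki67, Top2a, Cdk1, Birc5, Ube2c, Prc1, Cenpf, Hmmr and Pclaf. There were 72 such cells among the 19791 that passed the depth and mitochondrial filters, and they were compared with the 19039 passing cells that held none of the 9. The cells were tdTomato+ cells of the bilateral hippocampi of mice, measured by droplet single-cell RNA sequencing in 3 runs of 1 group, and no second treatment, genotype or tissue was compared. All animals were Cx3cr1CreERT2/+; Rosa26tdTomato/+; NestinTK-eGFP/+, so every cell, compared or comparing, came from animals with 1 tamoxifen-inducible Cre allele in Cx3cr1, a Cre-dependent tdTomato reporter and a Nestin-driven thymidine kinase and eGFP transgene. Tamoxifen had been given at 100 mg/kg on 4 days, and 12 animals (6 male, 6 female) were pooled over the runs without being assigned to a run, with no age in the labels. Cx3cr1 drives the reporter in microglia and in other macrophages and monocytes, so the sort admits all of them.

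Microglia are the resident macrophages of the brain. They are long-lived and renew by local division under signals through the receptor Csf1r, and in the undisturbed adult only a small part of them is in the cycle at a time. A dividing cell makes the enzymes of DNA replication and histones in S phase, driven by E2F factors, and then the cyclins, kinases and spindle proteins of G2 and mitosis, whose promoters often hold a CHR element beside CCAAT boxes read by the DREAM and MuvB complexes and by NF-Y. Of the 9 genes of the rule, Pclaf encodes a PCNA partner of S phase, Cdk1 the kinase that drives entry into mitosis, and Top2a the topoisomerase that untangles sister chromatids. Mki67 coats mitotic chromosomes, Birc5 belongs to the chromosomal passenger complex, Ube2c is the ubiquitin-conjugating enzyme of the anaphase-promoting complex, Prc1 bundles the central spindle, Cenpf sits at kinetochores and Hmmr at spindle poles.

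The promoters of 3 of these genes are shown because they hold different sets of these elements: Top2a with CHR and CCAAT letters only, Cdk1 with both and an E2F word, and Pclaf, the S phase member, with an E2F word and no CHR. Each is the RefSeq sequence of build GRCm38.p6 from 250 bases before to 50 after the annotated start, 5′ to 3′ on the gene's strand. Capitals mark the words searched on both strands: TTTGAA or TTCGAA for CHR, CCAAT for the CCAAT box, and TTTGGCGC, TTTCCCGC or TTTCGCGC for E2F. The Top2a window lies at chr11:99024140-99024439 (minus strand), that of Cdk1 at chr10:69352863-69353162 (minus strand) and that of Pclaf at chr9:65890073-65890372 (plus strand).
Top2a: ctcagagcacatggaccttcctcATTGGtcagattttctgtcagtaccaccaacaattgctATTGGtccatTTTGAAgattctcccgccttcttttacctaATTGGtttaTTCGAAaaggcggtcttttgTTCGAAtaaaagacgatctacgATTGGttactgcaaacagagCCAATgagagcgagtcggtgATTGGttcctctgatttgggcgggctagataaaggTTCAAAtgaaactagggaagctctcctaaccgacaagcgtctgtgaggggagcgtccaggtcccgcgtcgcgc
Cdk1: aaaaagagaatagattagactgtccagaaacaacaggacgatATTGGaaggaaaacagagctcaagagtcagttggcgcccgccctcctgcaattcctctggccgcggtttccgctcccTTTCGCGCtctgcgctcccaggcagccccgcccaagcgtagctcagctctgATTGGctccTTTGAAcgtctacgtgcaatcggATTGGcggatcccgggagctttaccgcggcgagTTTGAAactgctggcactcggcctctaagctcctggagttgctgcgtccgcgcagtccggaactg
Pclaf: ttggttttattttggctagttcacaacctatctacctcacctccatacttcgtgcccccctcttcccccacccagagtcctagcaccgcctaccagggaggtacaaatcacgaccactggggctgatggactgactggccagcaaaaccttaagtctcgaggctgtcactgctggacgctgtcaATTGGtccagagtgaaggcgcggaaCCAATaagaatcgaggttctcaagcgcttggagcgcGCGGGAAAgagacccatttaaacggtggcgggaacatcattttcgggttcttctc
The Top2a window held 4 CHR words and 6 CCAAT words, the Cdk1 window 2 and 3, and the Pclaf window 0 and 2. A CHR word was present in the windows of 7 of the 9 rule genes and a CCAAT word in those of 8, while the E2F words were in those of Cdk1 and Pclaf. The window of Birc5 held none of these letters. Such a match is a string of letters and not a shown binding site.

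Cycling cells were rare in every run. Run 1 held 40 among 6993 cells (0.572%, exact 95% binomial interval 0.409 to 0.778%), run 2 held 13 among 6720 (0.193%, 0.103 to 0.331%) and run 3 held 19 among 6078 (0.313%, 0.188 to 0.488%). The mean share was 0.359% ± 0.194 (SD, n = 3 runs). These intervals allow for counting error alone. That of run 1 lay above that of run 2 without touching it. Run 1 was also the most deeply read, with a median of 4425 UMIs per passing cell against 3438 and 3696. After each cell had been thinned to 2000 UMIs and the rule applied again, the shares were 0.435, 0.158 and 0.305%, with 91, 386 and 169 cells too shallow to be used, so run 1 stayed highest and run 2 lowest. Run was the unit of replication. Since nothing states that the runs came from separate animals, p-values below rest on the spread between these captures, which may be technical. In the main edgeR fit that spread was pooled over genes, so a p-value does not measure the gene's own spread between runs.

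Most passing cells held none of the 9 genes. Among passing cells 661 held 1 of the 9 genes, 19 held 2 and 8 held 3, while 52 of the 72 members (72.2%) held at least 6 and 19 held all 9. Cells just outside the threshold, with 2 genes, had a median of 8.85 S phase and 24.6 G2/M list UMIs per 10000 UMIs. Those just inside, with 3 genes, had medians of 8.11 and 30.6.

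**Figure D1:**
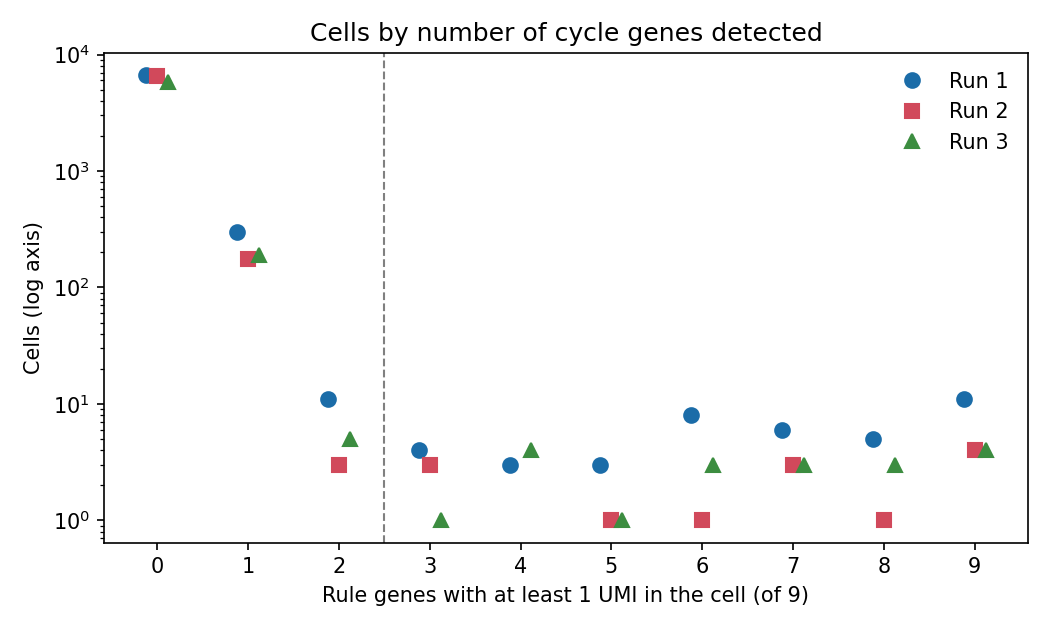
Number of passing cells (log axis) by how many of the 9 rule genes they held, for each run; the dashed line is the threshold for membership. Counts fall from 661 cells with 1 gene to 19 with 2 over the 3 runs, and a second group extends to 19 cells that held all 9.

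The rule genes themselves describe the members and are not tested. Mki67 was detected in 65 of 72 members with 491 UMIs, at 991, 555 and 791 CPM (counts per 1000000 summed UMIs) in runs 1, 2 and 3. Top2a was in 59 members with 566 UMIs, the most of the 9, at 1041, 1077 and 875 CPM. Cdk1 was in 55 (369, 465 and 402 CPM) and Birc5 in 60 (428, 612 and 382 CPM). All 4 were therefore present in most members of each run, and no run lacked any of them. Pclaf was in 52 members, Cenpf in 51, Hmmr in 46, and Ube2c and Prc1 in 44 each. Ube2c was the least even: 1 member of run 3 held 75 of its 313 UMIs.

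Members were caught at different points of the cycle. Pclaf together with at least 1 of the mitotic genes Birc5, Ube2c, Prc1, Cenpf and Hmmr was held by 46 members, 6 held Pclaf without any of these, and 20 held mitotic genes without Pclaf. Outside the rule, Rrm2, a subunit of ribonucleotide reductase, and Ccne2, cyclin E2, belong to replication, and Ccnb1, cyclin B1, and Cdc20, the activator of the anaphase-promoting complex, to mitosis. Of the 72 members, 21 held the replication genes only, 16 the mitotic genes only, 28 both and 7 neither. In members with 3 to 5, 6 to 8 and all 9 rule genes, the median S phase level was 23.9, 95.6 and 44.8 UMIs per 10000 and the median G2/M level 69.5, 128 and 209. S phase transcripts were thus highest in the middle group and G2/M transcripts in the cells with all 9, whose median depth was also highest (9126 UMIs, against 5739 and 6867).

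**Figure D2:**
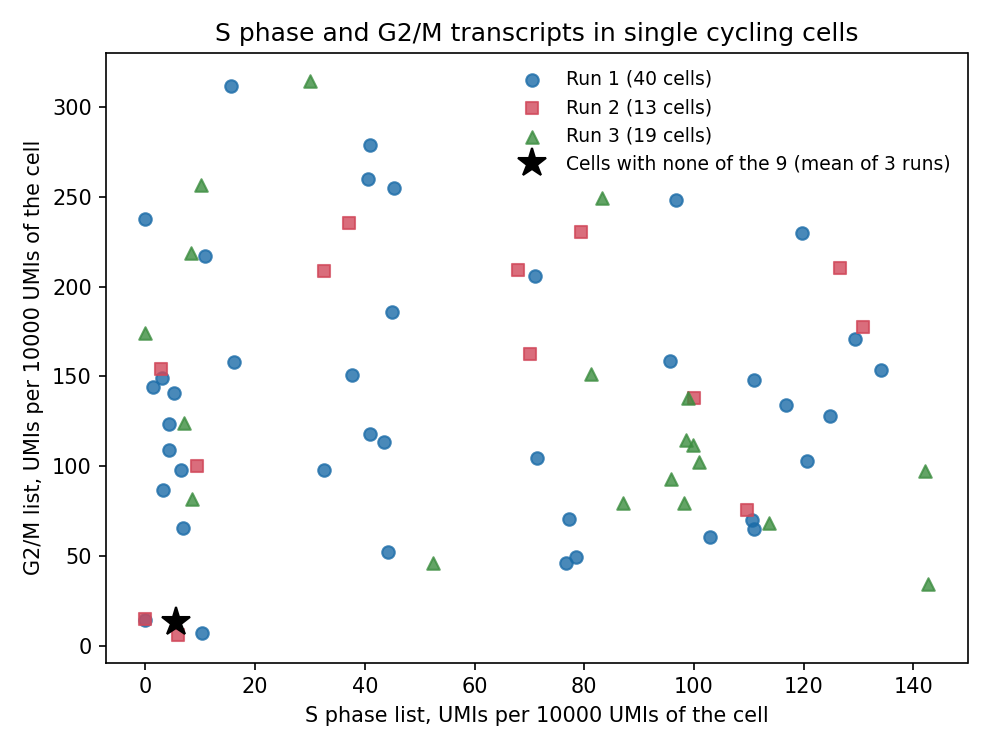
UMIs of the S phase list (x) and of the G2/M list (y) per 10000 UMIs in each of the 72 cycling cells, marked by run; the star is the mean over the 3 runs of cells with none of the 9 genes. Members range from 0 to 143 on the S phase axis and from 5.98 to 315 on the G2/M axis, and a few lie at the star.

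Depth and quality values moved with membership and stand beside every result below. Members had median depths of 7397, 6478 and 6310 UMIs against 4402, 3425.5 and 3681 in cells with none of the 9. Their median mitochondrial share was 3.52, 3.16 and 3.08% against 2.62, 2.11 and 2.59%. A second comparison therefore used 360 cells with none of the 9, taken as 5 per member of the same run and of like depth (medians of 7397, 6468 and 6299 UMIs). In run 3 the deepest member had 33627 UMIs and the deepest of these cells 17986, so that member had no match of its depth. Both Xist and Y-linked UMIs, which a single cell should not hold, were found in 5 of 72 members (6.94%, exact 95% binomial interval 2.29 to 15.5%), in 2.52% of the cells with none of the 9 and in 61 of the 360 depth-matched cells (16.9%). Barcodes shared between runs numbered 7 to 10 per pair, and no shared barcode was a member in both runs.

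The label of myeloid cells held against the markers. Csf1r was found in 71 of 72 members, Cx3cr1 in 70, and P2ry12 and Tmem119 in 69 each. Every gene of the 17 on the homeostatic microglia list had UMIs in the members, while markers of oligodendrocyte progenitors and erythroid cells were at 0 and those of T and NK cells came to 1 gene of 12. The member without Csf1r was a cell of run 1 with 1329 UMIs, which had none of the other 3 of these genes either. It held 22 UMIs of 3 neutrophil genes, 16 of them S100a9, with Ngp, Camp and Ltf at 0. That cell also held 7 UMIs of monocyte genes, 4 of them Plac8. Of 15 neural progenitor genes, 12 were at 0 in the members, Sox2, Eomes and Dcx, which define the proliferating progenitors of the dentate gyrus, among them. In the 360 depth-matched cells 11 were at 0, the same 3 included, so these zeros do not set the members apart. The 3 genes with UMIs in members were Nes, Sox4 and Sox11.

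Across all genes outside the rule, 11858 were tested with edgeR's quasi-likelihood test on counts summed per run, with the run as a block. At a Benjamini-Hochberg adjusted p threshold of 0.05, 2211 passed (18.6% of those tested), 1164 higher in cycling cells (9.82%) and 1047 lower (8.83%), and a log2 difference of 1 or more was reached by 930 and 539 of these. The median log2 difference over all genes tested was -0.16. DESeq2's Wald test passed 926 higher and 366 lower, so 71.7% of its calls were higher against 52.6% in edgeR. Against the depth-matched cells 6529 genes were tested and 1538 passed (23.6%), 947 higher (14.5%) and 591 lower (9.05%). Every list count below is to be read against these shares.

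Replication genes were higher together, as the choice of members implies, so these values are a description. Of 47 S phase genes tested 46 passed as higher and none as lower (median log2 difference 3.96). The MCM helicase genes that license and unwind origins lay between 1.59 for Mcm3 and 3.96 for Mcm5, with Mcm2 at 64.6 ± 14.9 CPM in cycling cells and 3.95 ± 0.658 in cells with none of the 9 (SD, n = 3 runs). Pcna, the sliding clamp of the polymerases, was at 214, 181 and 162 CPM against 20.6, 17.4 and 24.6 (log2 difference 3.04 ± 0.24, SE). The nucleotide enzymes stood further apart. Tyms, thymidylate synthase, reached 297 ± 101 CPM against 15.8 ± 1.01, Tk1, thymidine kinase, 315 ± 169 against 1.46 ± 0.43, and Rrm2 306 ± 143 CPM with 156 UMIs in the 72 members against 5 UMIs in all 19039 other cells. The repressor gene E2f8 was found with 39 UMIs in members and 2 outside.

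Genes of G2 and mitosis gave the widest separation. All 56 tested of the 57 listed passed as higher (median log2 difference 7.58), and many of them passed the filter on low counts only through the members, so that count supports nothing further. Cyclin genes had log2 differences of 10.41 ± 0.42 (Ccna2), 9.91 ± 0.46 (Ccnb1) and 8.96 ± 0.37 (Ccnb2), with 12, 14 and 35 UMIs in all cells with none of the 9. Ccnb1 stood at 149, 249 and 233 CPM in cycling cells and at 0.191, 0.127 and 0.217 CPM outside. Mitotic kinases followed, with Plk1 at 136 ± 37.4 CPM, Aurka at 112 ± 40.7 and Aurkb, the passenger complex kinase, at 247 ± 101, against 0.247 to 0.681 CPM. Spindle checkpoint genes Bub1 and Bub1b were at 76.9 ± 17.4 and 93.5 ± 22.4 CPM. The spindle protein gene Nusap1 had 165 UMIs in members against 7 outside, and Nek2, a centrosome kinase gene, had 22 against 0, which is at least 1013-fold higher when 0 is read as 3 counts over all those cells.

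The promoters of these lists differed in their letters. A CHR word was found in 69.8% of 53 RefSeq windows of the G2/M list (48 of 57 genes matched), in 17.5% of 40 windows of the S phase list (34 of 47 genes matched) and in 19.2% of all 32851 windows. CCAAT was in 73.6, 60 and 37.4% of them. The E2F words were most frequent in the S phase list, with 37.5% of S phase windows, 3.77% of G2/M windows and 1.84% of all. In the homeostatic microglia list, CHR words were in 23.5% of 17 windows (12 of 17 genes matched) and E2F words in 0 of them.

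Chromatin and cytoskeletal genes that a dividing cell makes in quantity reached the highest counts. Stmn1, stathmin, a regulator of microtubule turnover, was at 2032, 2606 and 1821 CPM against 42.4, 32.2 and 34.1, and it was found in 71 of 72 members against 78 of 360 depth-matched cells (21.7%). H2afz, a histone variant, was at 2599, 3309 and 2599 CPM against 373, 364 and 354, and Hmgb2, a chromatin protein, at 1698, 1609 and 2190.5 against 66.4, 51.1 and 88.2. No run of the cycling cells overlapped the other cells in these 3 genes. The share of all tested genes without overlap is not given, so here and below a lack of overlap only describes the values printed. Condensin subunits Smc2 and Smc4 had log2 differences of 5.04 ± 0.18 and 5.18 ± 0.18, and Tubb5, a tubulin, one of 2.38 ± 0.19. Of 23 genes on the chromatin and tubulin list 22 passed as higher. Tubb2a was the one that was lower, at 62, 102 and 117 CPM against 131, 137 and 118 (log2 difference -0.69 ± 0.24, edgeR adjusted p = 0.0234), and its adjusted p was 0.615 without run 1 and 0.0570 without run 2. Of 26 tested histone genes 22 passed as higher (10 of 19 without run 1), led by Hist1h1b with 163 UMIs against 5 and Hist1h3c with 15 against 0 (at least 691-fold higher). Hist1h3c thus passed the filter on low counts only through the members. As the members were chosen by cycle genes, the counts of both lists follow in part from that choice and are a description. Replication-dependent histone genes are near-identical copies whose RNA mostly lacks a poly(A) tail, so values of single copies are uncertain.

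Among genes on none of the cycle lists, those with the largest increase were also known from division. Melk, a kinase of mitotic cells, had 59 UMIs in members and 0 in the others (at least 2717-fold higher), Mxd3, a Myc network partner, 41 and 0 (at least 1888-fold), and E2f7, an E2F repressor, 31 and 0 (at least 1427-fold). Sapcd2 had 21 and 0 (at least 967-fold) and Kif18b, a kinesin, 25 and 0 (at least 1151-fold). Pbk stood at 211, 272 and 292 CPM with 3 UMIs outside, and Esco2, the cohesin acetyltransferase, at 204, 317 and 123 CPM with 4 UMIs outside. The kinetochore gene Ska1, the kinesin Kif4, and Aspm, Depdc1a, Aunip, Cep55, Neil3 and Ankle1 completed the 15, with 19 to 79 UMIs in members and 1 to 9 in the other cells. These values too follow from the choice of cycling cells and are a description.

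**Figure D3:**
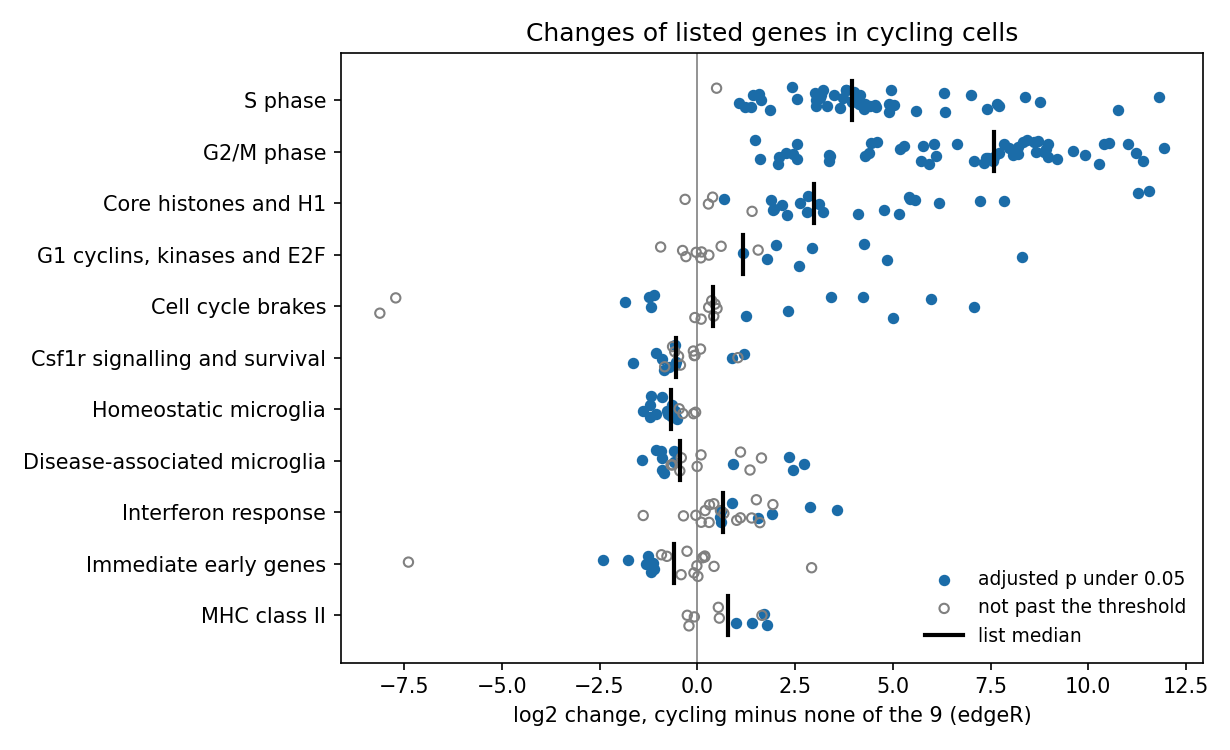
log2 difference of each tested gene between cycling cells and cells with none of the 9 (edgeR, counts summed per run), by gene list; filled points had an adjusted p under 0.05, open points did not, and the bar is the list median. Medians run from 7.58 for G2/M and 3.96 for S phase to -0.67 for homeostatic microglia genes; cell cycle brakes hold genes far to both sides.

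Entry into the cycle is governed by G1 cyclins and E2F factors. Of 17 such genes tested, 8 passed as higher and none as lower (median log2 difference 1.17). The members were chosen by cycle genes, so this count follows in part from that choice and is a description. Ccne1, for one, passed the filter on low counts only through the members. Ccne1, cyclin E1, was at 83.7, 56.7 and 90.7 CPM against 0.223, 0.211 and 0.217, and E2f1 at 74.4, 34 and 90.7 against 2.52, 1.82 and 2.04. E2f2 and Skp2, which encodes the ubiquitin ligase subunit that targets the protein of Cdkn1b for degradation, had log2 differences of 4.27 ± 0.48 and 2.94 ± 0.38. Ccnd1, cyclin D1, did not share this pattern. It was at 118, 90.7 and 123 CPM in cycling cells and at 105, 148 and 152 in the others, ranges that overlapped (log2 difference -0.29 ± 0.22, edgeR adjusted p = 0.41), and was detected in 31 of 72 members against 204 of 360 depth-matched cells.

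Genes known as brakes of the cycle divided into opposite groups. Of the 20 tested, 7 passed as higher, 4 as lower and 9 did not pass. Some of these genes, Cdkn3 among them, belong to dividing cells. With members chosen by cycle genes, the count of higher genes follows in part from that choice and is a description. Cdkn1a (chr17:29090976-29100727, build GRCm38), the p53-induced inhibitor of cyclin-dependent kinases, was at 514, 861 and 473 CPM in cycling cells and at 15.6, 49.2 and 31.1 in the others. Each run of cycling cells was above each run of the others, and the log2 difference was 4.24 ± 0.18 (SE, edgeR adjusted p = 6.43e-114). Cdkn1a was detected in 56 of 72 members (77.8%) against 34 of 360 depth-matched cells (9.44%), and against those cells the log2 difference was 3.996. It was found in 18 of the 21 members with replication genes only, in 12 of the 16 with mitotic genes only, in 24 of the 28 with both and in 2 of the 7 with neither, and so was not limited to 1 phase.

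Some other inhibitors were higher too, under the same limit. Cdkn2c (chr4:109660876-109667189), an INK4 inhibitor of the cyclin D kinases, was at 273, 567 and 227 CPM against 9.81, 10.0 and 7.48, again without overlap (log2 difference 5.01 ± 0.22, edgeR adjusted p = 1.52e-113), and it was in 50 of 72 members against 22 of 360 depth-matched cells. Cdkn2a (chr4:89274471-89294653), whose locus encodes an INK4 inhibitor and the ARF protein, which these counts per gene do not separate, was at 99.1, 125 and 51.8 CPM against 1.75, 1.01 and 0.956 (5.98 ± 0.52, adjusted p = 1.45e-28). It was detected in 31 of 72 members against 4 of 360 depth-matched cells. Cdkn3, a phosphatase gene of mitotic cells, had a log2 difference of 7.08 ± 0.45. Cdkn1b, the inhibitor linked to quiescence, did not pass, at 108, 56.7 and 38.9 CPM against 60.1, 35 and 60 (0.37 ± 0.27, adjusted p = 0.395).

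The 4 brakes that passed as lower were Btg1, Ccng2, Btg2 and Cdkn1c; without the run as a block 2 brakes passed as lower. Btg1, an antiproliferative gene, was at 186, 170 and 259 CPM against 379, 385 and 570, with no overlap (log2 difference -1.23 ± 0.20, edgeR adjusted p = 4.3e-08). Ccng2, a cyclin gene of quiescent cells, was at 77.5, 34 and 58.3 CPM against 118, 126 and 139 (-1.10 ± 0.25, adjusted p = 0.000187). Btg2, which is also an immediate early gene, was at 139, 147 and 395 CPM against 224, 234 and 1170, the highest values of both populations being those of run 3 (-1.18 ± 0.21, adjusted p = 6.04e-07, and an adjusted p of 0.115 in a fit without the run as a block). Cdkn1c rested on 4 UMIs in members (-1.85 ± 0.65, adjusted p = 0.0284) and lost its call in 7 of the alternatives.

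**Figure D4:**
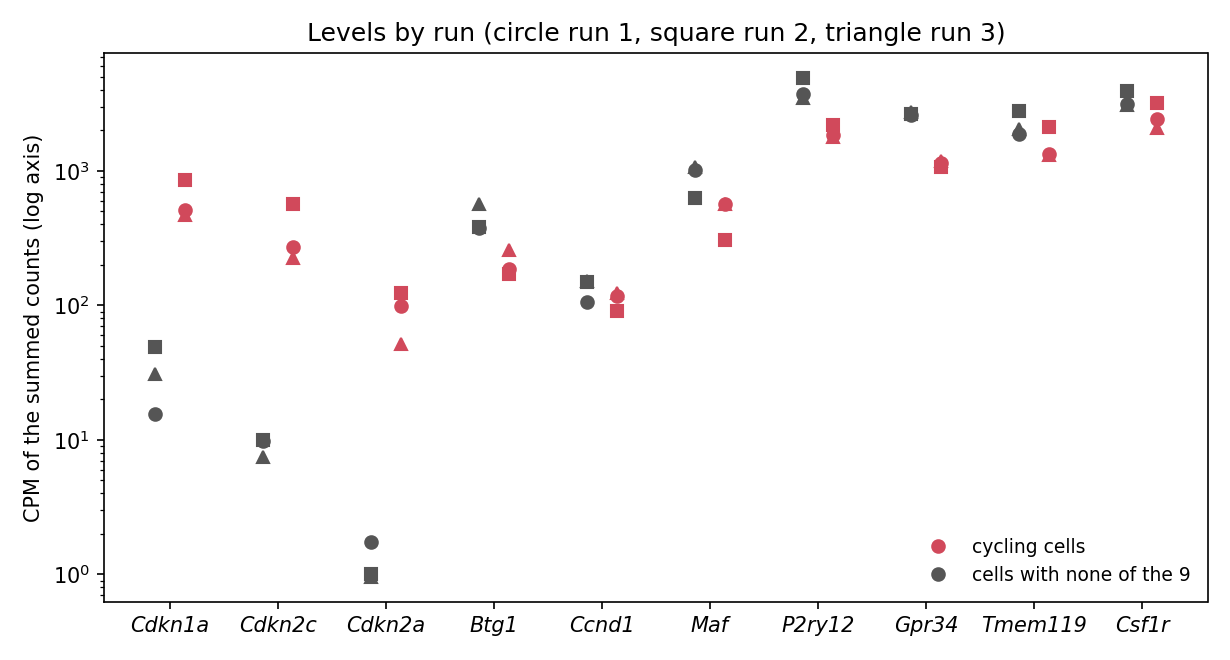
Level of 10 genes in each run (CPM of the summed counts, log axis) in cycling cells (red) and in cells with none of the 9 rule genes (grey); circles, squares and triangles are runs 1, 2 and 3. The inhibitor genes Cdkn1a, Cdkn2c and Cdkn2a lie higher in every run of cycling cells, and Btg1, Maf, P2ry12 and Gpr34 lower, while the 2 sets of points overlap for Ccnd1, Tmem119 and Csf1r.

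Genes that mark resting microglia were lower in cycling cells, though still abundant. Of the 17 homeostatic genes tested, 13 passed as lower and none as higher (median log2 difference -0.67, against -0.16 over all genes). The list summed to 63025 to 93373 CPM in cycling cells and to 95529 to 115819 in the others. P2ry12 (chr3:59216272-59262871), the purine receptor that guides microglial processes, was at 1865, 2210 and 1782 CPM against 3719, 4914 and 3509, with no overlap (log2 difference -1.19 ± 0.20, edgeR adjusted p = 3.62e-08), and it was still detected in 69 of 72 members. Gpr34, a lysophospholipid receptor, was the lowest of the list at 1140, 1077 and 1186 CPM against 2587, 2664 and 2740 (-1.38 ± 0.19, adjusted p = 6.34e-11). The purine receptor gene P2ry13 and the sugar transporter gene Slc2a5 were lower by similar amounts, with log2 differences of -1.20 ± 0.20 and -1.21 ± 0.20.

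Other homeostatic genes differed less. Tmem119, a microglial membrane protein, was at 1329, 2108 and 1309 CPM against 1867, 2787 and 2051, lower within each run though the ranges of the populations overlapped (log2 difference -0.67 ± 0.19, edgeR adjusted p = 0.00423). Cx3cr1, the fractalkine receptor, had a difference of -0.75 ± 0.19 (adjusted p = 0.00104, but 0.0518 without run 1 and 0.273 without run 3). The 4 that did not pass were Olfml3, Sparc, Fcrls and Mef2c. Against depth-matched cells 9 of the 17 passed as lower (median -0.48), P2ry12 and Gpr34 among them at -0.94 and -1.06, while Tmem119 was at -0.39 (adjusted p = 0.0881) and also lost its call without run 1 (0.0791) and without run 3 (0.168). The number lower was 8 without the run as a block and 7, 10 and 6 without runs 1, 2 and 3, and none of these fits passed a homeostatic gene as higher.

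Genes of growth factor signalling and its transcription factors were lower more often than higher. Of 20 tested genes of Csf1r signalling and survival, 8 passed as lower and 2 as higher (median log2 difference -0.55), which came to 4 and 1 without the run as a block and to 4 and 2 without run 3. Maf, a transcription factor of macrophages, was at 564, 306 and 570 CPM against 1014, 629 and 1073, with no overlap (log2 difference -1.05 ± 0.20, edgeR adjusted p = 1.68e-06). Csf1r itself, the receptor on which microglia depend, was at 2432, 3207 and 2093 CPM against 3136, 3945 and 3084, so the populations overlapped (-0.56 ± 0.19, adjusted p = 0.0241), and the call was lost against depth-matched cells (adjusted p = 0.0558) and without run 1, 2 or 3 (0.166, 0.0503 and 0.353). Trem2 and Tyrobp, a lipid receptor and its adaptor, had differences of -0.91 ± 0.19 and -0.85 ± 0.19. Both genes that passed as higher act at the mitochondrion: Bax, which promotes apoptosis, at 266, 340 and 240 CPM against 129, 150 and 131 (0.89 ± 0.19, adjusted p = 3.85e-05), and Bcl2, which opposes it, with 27 UMIs in members (1.18 ± 0.38, adjusted p = 0.0136, but 0.345 without run 1, 0.0579 without run 2 and 0.0547 without the run as a block).

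States known from disease and activation did not move as a block. Of 21 tested genes of the disease-associated list, 4 passed as higher and 8 as lower (median log2 difference -0.45), and against depth-matched cells 8 of 18 were lower and none higher. Without the run as a block 4 were lower, and without run 3 the counts were 2 higher and 4 lower. Cd63, a tetraspanin of lysosomes, was at 332, 90.7 and 201 CPM against 403, 503 and 399, and Ctsd, cathepsin D, at 4337, 5281 and 3966 against 6769.5, 9562 and 6981, both without overlap (log2 differences of -1.06 ± 0.20 and -0.92 ± 0.20, edgeR adjusted p = 3.1e-06 and 7.39e-05, the latter 0.0757 without run 3). Spp1, osteopontin, was at 31, 11.3 and 136 CPM against 9.36, 2.91 and 9.3 (2.73 ± 0.44). However, it came from 10 members with 32 UMIs, 13 of them in a single cell, and its call was lost without run 3 (edgeR adjusted p = 0.124). Against depth-matched cells its summed level was lower (-0.78, edgeR adjusted p = 0.0422). Yet Spp1 was detected in a larger share of members (13.9%) than of those cells (10 of 360, 2.78%). Apoe, the lipid carrier, was uneven at 1623, 510 and 836 CPM against 1265, 1311 and 1254.5 (-0.59 ± 0.19, adjusted p = 0.0174), and the call was lost in 6 alternatives, without run 2 (-0.16, adjusted p = 0.687) and without run 3 (0.267) among them, while the difference was -1.38 against depth-matched cells. Of its 698 UMIs 362 were in 1 member. Ccl3, a chemokine, rested on 10 UMIs in members (-1.42 ± 0.42, adjusted p = 0.00614, and an adjusted p of 0.281 against depth-matched cells and 0.172 without run 3).

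Interferon genes were higher in part. Of 24 tested, 8 passed as higher and none as lower (median log2 difference 0.65), but against depth-matched cells only 2 of 17 did, with a median of -0.07. Ifi27l2a, an interferon-induced mitochondrial protein, was at 1072, 351 and 408 CPM against 45.1, 47.5 and 42.3, with no overlap (log2 difference 3.58 ± 0.19, edgeR adjusted p = 1.76e-72, and 2.88 against depth-matched cells). It was found in 29 of 72 members (40.3%) against 50 of 360 depth-matched cells (13.9%), and 83 of its 440 UMIs were in 1 member. Irf7, the factor that amplifies interferon output, was at 80.6, 68 and 13 CPM against 6.66, 8.74 and 5.91 (2.89 ± 0.43, adjusted p = 9.04e-10, and an adjusted p of 0.135 without run 1). Ifitm3, an entry restriction factor, had a difference of 1.92 ± 0.24 that came to 0.40 against depth-matched cells (adjusted p = 0.257) and to 0.75 without run 1 (0.359). The list count was 3 without run 1, 5 without run 2 and 3 without the run as a block.

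Immediate early genes, which respond within minutes to stimulation and to tissue dissociation, were highest in run 3 in both populations. Of 20 tested, 7 passed as lower and none as higher (median log2 difference -0.60), which came to 3 of 17 without run 3 and 1 of 18 without the run as a block. Egr1 was at 6.2, 0 and 77.8 CPM in cycling cells and at 3.22, 5.87 and 289 in the others, so that run 3 held nearly all of it in both (-1.77 ± 0.38, edgeR adjusted p = 4.83e-05, and 0.21 without run 3 with an adjusted p of 0.957). Jund was at 105, 102 and 292 CPM against 244, 295 and 597 (-1.32 ± 0.21, adjusted p = 1.1e-08). Fos and Ier2 had 2 and 11 UMIs in members.

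Outside the lists, the genes with the largest decrease rested on few UMIs in members. Atp8a2, a lipid flippase gene, had 9 UMIs at 9.29, 22.7 and 25.9 CPM against 95.1, 86.4 and 96.2, with no overlap (log2 difference -2.65 ± 0.37, edgeR adjusted p = 3.95e-11). Slc37a2, a sugar phosphate exchanger gene, had 6 UMIs (-2.76 ± 0.45), Crebrf 7 (-2.67 ± 0.43) and Slc46a1, a folate transporter gene, 7 (-2.57 ± 0.42). Agpat2, an enzyme of phospholipid synthesis, had 3 UMIs at a level 7.74-fold lower (counting interval 2.65 to 37.6), and Kdm5b, a histone demethylase, 3 at a level 7.03-fold lower (2.4 to 34.1). Cyp27a1, Gbe1, Rbpms, Psen2, Phf1, Tcp11l2 and Card6 had 1 to 3 UMIs each, and their ratios lay between 4.83-fold and 13.6-fold lower, with counting intervals that reached down to 1.65-fold. At this number of UMIs only large decreases of such genes could be detected.

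Lists of other tissues did not move together. On the choroid plexus list 2 of 4 tested genes passed as lower, on the astrocyte list 1 of 7 (median log2 difference 0.03), and on the B cell list 1 of 2, with no other gene of these lists passing in edgeR. The oligodendrocyte list summed to 104 to 147 CPM in cycling cells and to 94.8 to 123 in the others. Ttr and Enpp2 of the choroid plexus, the epithelium that makes cerebrospinal fluid, were at 5.35 ± 6.77 and 0 CPM in cycling cells against 478 ± 388 and 22 ± 20.5. Ttr had 3 UMIs in the members, a level 90.1-fold lower (counting interval 30.8 to 437), and Enpp2 none, at least 4.09-fold lower. In the other cells Ttr itself varied between runs at 449, 880 and 105 CPM, and the choroid list summed to 596, 6.78 and 5.82 CPM in the depth-matched cells. Slc1a3, a glutamate transporter gene of astrocytes, was at 143, 79.3 and 77.8 CPM against 345, 215 and 234 (log2 difference -1.51 ± 0.23, edgeR adjusted p = 8.86e-10), with the other 6 tested astrocyte genes not passing. Of 3 tested genes of the neural progenitor list 1 passed in each direction. Sox4, a gene that other cells also use, was at 102, 193 and 143 against 288, 356 and 427 (-1.50 ± 0.21, adjusted p = 8.05e-11). Nes, the intermediate filament nestin, rested on 9 UMIs in members at 12.4, 11.3 and 25.9 CPM against 3.31, 4.43 and 4.65 (1.92 ± 0.73, adjusted p = 0.0483), and its call was lost when any 1 of the runs was left out. Ighm of the B cell list was lower at -0.84 ± 0.20 (adjusted p = 0.0676 without run 3). The part of other cells' RNA in these differences was not tested.

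The next question was which cycling cells carried MHC class II transcripts, which load peptides for display to helper T cells and mark activated microglia, macrophages and dendritic cells. A carrier held UMIs of at least 2 of H2-Aa, H2-Ab1, H2-Eb1 and Cd74. There were 10 among the 72 members (13.9%, exact 95% binomial interval 6.87 to 24.1%), with 6 of 40 in run 1, 0 of 13 in run 2 (which allows up to 23.1%) and 4 of 19 in run 3. In cells with none of the 9 the share was 1.78%, and in depth-matched cells it was 30 of 360 (8.33%, 5.69 to 11.7%), an interval that overlapped that of the members. At 2000 UMIs per cell, 3 of 58 members (5.17%) and 1.04% of the other cells were carriers. Counted the other way, cycling cells were 0.272% of the 17289 cells with no UMI of these genes, 0.766% of those with 1 or 2, 2.07% of those with 3 to 9, and 4 of 171 (2.34%, 0.641 to 5.88%) of those with 10 or more. Median depth rose along the same order, from 3789 to 4187.5, 4905 and 5744 UMIs. Of the 10 carriers, 3 held both Xist and Y-linked UMIs.

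Most of the MHC class II RNA of cycling cells was in a single cell. That cell, of run 3, had 33627 UMIs, the most of any member, and 21.8% of all UMIs of the members of its run. It held all 9 rule genes, 930 UMIs of the 4 MHC class II genes, 38 of Plac8 and 13 of Ccr2, which are genes of monocytes, none of P2ry12 or Tmem119, and both Xist and Y-linked UMIs. A further carrier of run 3 held 62 MHC class II UMIs with no P2ry12, and 1 of run 1 held 69 with 2 UMIs of P2ry12. The other 7 had 2 to 12 MHC class II UMIs and 6 to 23 UMIs of P2ry12.

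The gene values show what this cell weighs. H2-Aa was at 37.2, 0 and 1549 CPM in cycling cells against 50.4, 71.6 and 97.8 in the others, and Cd74, the invariant chain, at 211, 11.3 and 2702.5 against 154, 256 and 294. H2-Aa was above the other cells in run 3 only, and Cd74 in run 3 and, by far less, in run 1. The fit over the 3 runs passed H2-Aa, H2-Ab1, H2-Eb1 and Cd74 as higher (log2 differences of 1.78 ± 0.23, 1.70 ± 0.22, 1.39 ± 0.21 and 0.99 ± 0.22), 4 of the 10 tested genes of the list. Without that 1 cell the 4 differences became -0.68, -0.072, -0.77 and -0.33, with edgeR adjusted p-values of 0.0926, 0.887, 0.0567 and 0.244. Against depth-matched cells, with that cell kept, the summed level of Cd74 was lower (-1.24, edgeR adjusted p = 0.0312). Detection did not go the same way. Cd74 was found in 22.2% of members and 18.9% of depth-matched cells, H2-Aa in 9.72 and 6.39%, H2-Ab1 in 20.8 and 11.1%, and H2-Eb1 in 8.33 and 4.72%. In those comparison cells the MHC class II list summed to 2158 to 3123 CPM, against 781 to 1115 CPM in all cells with none of the 9. Plac8 was detected in 13 members, 38 of its 56 UMIs being in that cell, at 46.5, 22.7 and 253 CPM against 1.53, 4.48 and 5.43 (4.71 ± 0.41, adjusted p = 1.4e-28), and it kept its call without that cell (3.30, adjusted p = 4.35e-07) and against depth-matched cells (3.87). Siglecg of the dendritic cell list had 20 UMIs in members (1.26 ± 0.45, adjusted p = 0.0319) and lost its call in most alternatives.

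**Figure D5:**
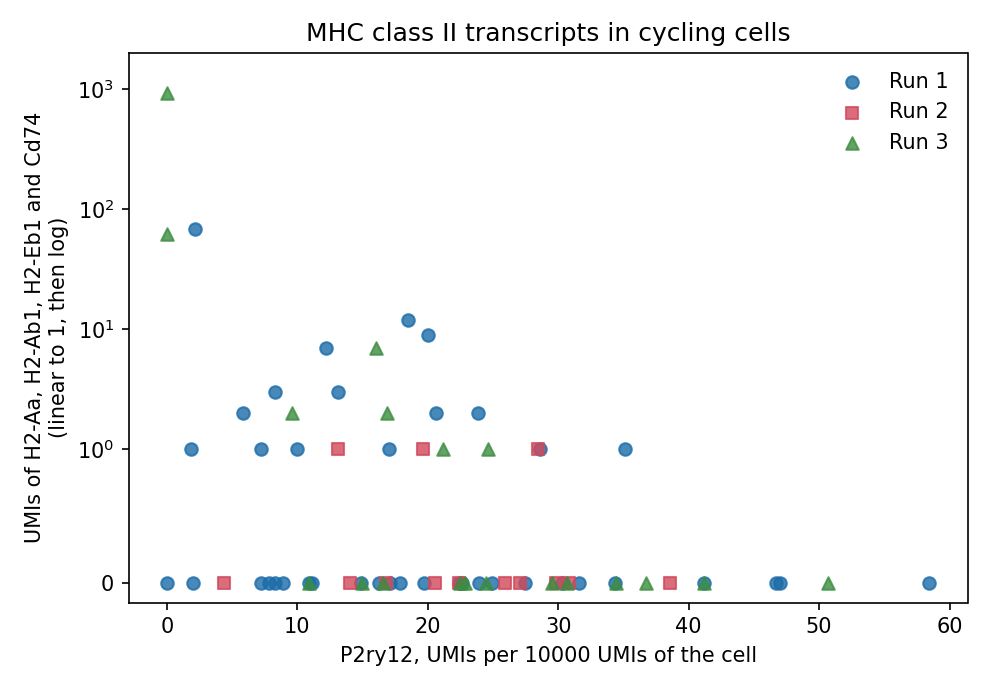
UMIs of the 4 MHC class II genes (y, linear to 1 and then log) against P2ry12 UMIs per 10000 UMIs (x) in each of the 72 cycling cells, marked by run. The 3 cells with 62, 69 and 930 UMIs lie at the low end of P2ry12, and most members have 0.

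Transcripts of border macrophages, the macrophages of the meninges and of the spaces around vessels, were rarer. A carrier held at least 2 of Pf4, Mrc1, Lyve1, F13a1, Cd163, Cbr2, Ms4a7 and Folr2. There were 2 among 72 members (2.78%, exact 95% binomial interval 0.338 to 9.68%), 1 in run 1 and 1 in run 3, against 0.882% of cells with none of the 9 and 14 of 360 depth-matched cells (3.89%). At 2000 UMIs per cell 0 of 58 members were carriers, which allows a share of up to 5.17%, and 0.773% of the others. The carrier of run 1 held all 8 genes with 70 UMIs, including every Pf4 UMI of the members (24), together with 39 UMIs of P2ry12, and it held both Xist and Y-linked UMIs with 19488 UMIs in all. The carrier of run 3 was the MHC class II carrier with 62 UMIs, and held 1 UMI each of Mrc1 and Ms4a7. Mrc1 was at 65.1, 0 and 6.48 CPM against 23.1, 8.32 and 23.1 (edgeR adjusted p = 0.332) and Pf4 at 74.4, 0 and 0 against 32.3, 15.3 and 33.6 (adjusted p = 0.729). Of the 14 border macrophage genes tested, 1 passed in each direction (median log2 difference 0.20). F13a1, a coagulation factor gene, passed as higher with 16 UMIs, 15 of them in 1 member of run 1 (1.64 ± 0.56, adjusted p = 0.0220), and was at 0.08 against depth-matched cells. Stab1, a scavenger receptor gene that microglia also express, was lower at 118, 113 and 90.7 CPM against 307, 221 and 248 (-1.43 ± 0.22, adjusted p = 5.2e-09).

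The 61 members that carried neither set made up most of the group. They had 2171 CPM of P2ry12 and 2697 CPM of Csf1r in their summed counts, against 882 and 1561 CPM in the 10 MHC class II carriers (1234 and 2148 CPM in the 9 without the cell with the most UMIs), and 2.34 CPM of H2-Aa. Both sexes took part: cycling cells were 31 of 8806 cells with Xist and without Y-linked UMIs (0.352%, exact 95% binomial interval 0.239 to 0.499%) and 23 of 5349 with Y-linked UMIs and without Xist (0.430%, 0.273 to 0.644%), intervals that overlapped. At 2000 UMIs per cell these shares were 0.363 and 0.239%.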

How the data were processed

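Hippocampi were dissected after perfusion, myelin was removed on magnetic columns and viable cells were sorted for 10x Genomics libraries, per the labels' protocols. The deposited values are raw UMI counts per gene and barcode for 31053 genes. The software version is 3.0.2 in run 1 and 3.1.0 in the others, per the file headers, and the submitters' processing notes name Cell Ranger, Seurat 4.0 and build mm10. How barcodes were selected is not given in the sources used here. The runs held 7255, 6895 and 6226 barcodes with 34140879, 24717907 and 24225612 UMIs, and the counts of no run repeated those of another (chi-square divided by its degrees of freedom from 28.1 to 60.9 between pairs). Of the gene IDs, 31011 matched the GENCODE annotation of GRCm38, whose coordinates are 1-based and cover the whole gene.

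The members, the lists and the tests were chosen with earlier results of these data known. Counts were summed per run over cycling cells and over cells with none of the 9 genes, and tested in R 4.3.3 with edgeR 4.0.16 (TMM, filterByExpr, glmQLFit, glmQLFTest), run as a block, with the 9 rule genes left out of the tested genes but kept in the totals. The run pairs the sums, which share a library: within a run, deviations from the mean of each population had correlations of 0.465, 0.408 and 0.314 over 3504 genes (genes are no replicates). The estimated common dispersion was 0.0200 with an infinite prior degree of freedom, so genes shared a single estimate of spread. DESeq2 1.42.0 was an alternative. In counts simulated for this comparison (11662 genes), 64.6% of 4-fold and 18.6% of 2-fold increases were recovered. Of the decreases, 31.0% of 4-fold and 10.6% of 2-fold ones were recovered. The share of false calls in the deposited counts was not tested.

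CPM values are counts per 1000000 summed counts. Intervals are exact at 95%, and a 0 was taken to allow 3 counts, which covers the error of counting alone. Doublets were not called, and cells holding Xist as well as Y-linked UMIs were counted and left out as an alternative. Named genes were the 9 rule genes, up to 15 per direction outside the cycle lists past the threshold that changed by 0.5 or more on the log2 scale in the same direction in 3 runs, with 20 CPM or more where higher (ribosomal, mitochondrial and unnamed genes left out), up to 4 per direction of each list from 5 CPM, and a set fixed by role. Of those from the lists, the text gives the ones it describes, and some genes are not reported here. Of 455 listed genes 454 were in the files.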

Additional observations from a re-analysis of the deposited data

How the results depend on the processing

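Of 1595 results for 116 named genes under 14 alternatives, 1450 kept their direction and side of the threshold, 108 lost the call, 3 gained one and 34 changed sign. For 81 genes neither direction nor call changed. The count of 2211 genes became 1292 in DESeq2's Wald test, 1552 without the run as a block (no replicate block), and 1065 to 1774 when a run was left out, the lowest without run 1 and 1418 without run 3, fits with fewer cells. Shares with a run left out were 0.253 to 0.442% for cycling cells, 7.5 to 18.0% for MHC class II carriers and 1.25 to 3.88% for border macrophage carriers. With 1 carrier gene in place of 2, the mean carrier shares were 32.5% for MHC class II and 11.0% for border macrophages.

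Sign changes on the log2 scale were as follows. Against depth-matched cells, Spp1 was at -0.78, Cd74 -1.24, H2-Aa -0.45, H2-Ab1 -0.42, H2-Eb1 -0.71, Mrc1 -0.42 and Pf4 -0.70. The depth-matched cells had a higher sum of the MHC class II list than all cells with none of the 9 in each run. Their border macrophage list sum was higher in run 1 only. They also held both Xist and Y-linked UMIs more often (16.9 against 2.52%). Without cells of both sex transcripts, Cd74 was at -0.35, H2-Aa -0.59, H2-Ab1 -0.0016, H2-Eb1 -0.65, Mrc1 -0.087, F13a1 -1.55 and Pf4 -11.26. Without the cycling cell with the most UMIs, an alternative chosen after seeing the data, Cd74 was at -0.33, H2-Aa -0.68, H2-Ab1 -0.072 and H2-Eb1 -0.77. With a run left out, the ranges were -0.45 to 1.91 for Cd74, -1.06 to 2.46 for H2-Aa, -0.36 to 2.32 for H2-Ab1, -0.87 to 1.84 for H2-Eb1 and -2.02 to 0.21 for Egr1, each changing sign without run 3, and -0.29 to 0.73 for Cdkn1b, -2.24 to 1.22 for Mrc1, -9.30 to 2.34 for F13a1 and -11.26 to 0.92 for Pf4, each changing sign without run 1. In DESeq2's Wald test, H2-Aa was at -0.39, H2-Eb1 -0.38, Mrc1 -0.016 and Pf4 -2.20. In an alternative limited to cells with microglia markers, Cd74 was at -0.15, Nes -7.29 and Pf4 -6.45. These cells held at most 1 detected gene of each of the MHC class II carrier, border macrophage carrier, T and NK, neural progenitor and oligodendrocyte progenitor sets. Cd74, Nes and Pf4 belong to these sets, and the lists of other cell classes were not limited. Values below -6 arise because no member then held the gene. The causes of the other changes were not tested. With 72 members, genes under about 20 CPM rest on a few UMIs, and 690 genes had no adjusted p in DESeq2.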
